A study of Mus musculus with 50 samples.

Results

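The genes described here are 10 genes of the endoplasmic reticulum (ER) stress response, chosen by symbol because TFII-I, the protein encoded by Gtf2i, is a known factor at the stress element of the Hspa5 promoter. All 10 were present in the deposited table of 11708 genes, so none was lost to a filter on low values. The rule uses no expression value, though it was written with earlier results of these data known. They were measured by RNA sequencing in 18 libraries from whole brains of E13.5 mouse embryos of strain FVB/ANTJ, in 6 groups of 3 libraries. The gtf2i cross held embryos labelled wt, gtf2i and gtf2i/gtf2i, and the ird1 cross held embryos labelled wt, ird1 and ird1/ird1, where gtf2i and ird1 stand for mutant alleles of Gtf2i and Gtf2ird1. Each cross had its own wt libraries, and the groups labelled with 1 allele name were read as heterozygous. The labels give neither the kind of mutation nor any treatment that would stress the ER. They do not give the sex of the embryos or say that each library was a separate litter.

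The ER folds secreted and membrane proteins. When unfolded proteins build up, the sensors IRE1, PERK and ATF6 start the unfolded protein response: IRE1 splices the Xbp1 transcript, PERK slows translation while allowing that of Atf4, and ATF6 is cut to release a transcription factor. ATF6 and XBP1 act with NF-Y through ER stress elements in the promoters of chaperone genes, and ATF4 raises Ddit3, which encodes CHOP. TFII-I has been described as binding the GC-rich spacer of the stress element of the Hspa5 promoter and as raising its activity in stressed cultured cells. Splicing of Xbp1, translation of Atf4 and cleavage of ATF6 are not visible in counts per gene.

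The promoter sequences are shown first because the stress element of Hspa5 is where TFII-I is known to act and the other genes were searched for the same element. The 250 bases before the annotated start of Hspa5 (GRCm38.p6, chr2:34771840-34772089, plus strand) and of Hsp90b1 (chr10:86705445-86705694, minus strand) were taken from RefSeq and are written 5′ to 3′ on the strand of the gene, with exact ER stress elements in capitals.
Hspa5: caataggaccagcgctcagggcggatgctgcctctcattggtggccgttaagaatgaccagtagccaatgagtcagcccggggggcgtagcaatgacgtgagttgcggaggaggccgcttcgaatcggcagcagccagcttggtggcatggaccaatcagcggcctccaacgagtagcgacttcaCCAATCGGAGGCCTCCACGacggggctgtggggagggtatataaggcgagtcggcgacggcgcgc
Hsp90b1: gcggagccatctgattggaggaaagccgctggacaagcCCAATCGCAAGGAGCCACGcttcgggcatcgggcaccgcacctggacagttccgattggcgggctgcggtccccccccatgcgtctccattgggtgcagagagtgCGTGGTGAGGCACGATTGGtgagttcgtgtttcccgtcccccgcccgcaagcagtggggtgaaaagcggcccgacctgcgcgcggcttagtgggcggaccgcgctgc
The element searched was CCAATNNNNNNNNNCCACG, on both strands of windows from 250 bases before to 50 after each start. It has 10 fixed letters: a CCAAT box for NF-Y, 9 free bases, and the CCACG part bound by ATF6.

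An exact element was found in 4 of the 10 genes, and in 39 of 32851 RefSeq promoter windows of the same length (0.119%). The genes were chosen because of the Hspa5 element, and chaperone promoters are known to hold such elements. The shares among the 10 are therefore a description and not a test. Hspa5 held 1, Hsp90b1 held 2 in opposite orientations, and Calr and Pdia6 held 1 each. Every RefSeq window was matched by symbol, and all 10 genes had 1 window. The elements are written below in their own orientation, with the fixed positions in capitals, to show how the free spacer differs between genes.
Hspa5, 65 bases upstream (chr2:34772025-34772043): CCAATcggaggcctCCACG
Hsp90b1, 212 bases upstream (chr10:86705638-86705656): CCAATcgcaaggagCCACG
Hsp90b1, 107 bases upstream (chr10:86705533-86705551): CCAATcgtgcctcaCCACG
Calr, 162 bases upstream (chr8:84847075-84847093): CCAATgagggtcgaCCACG
Pdia6, 98 bases upstream (chr12:17266491-17266509): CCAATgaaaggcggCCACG
Pdia3, 29 bases upstream (chr2:121413873-121413891), 1 mismatch: CCAATcggcggctgCCACA
Pdia4, 108 bases upstream (chr6:47813602-47813620), 1 mismatch: CCAATcacgggctgCCACT
Ddit3, 91 bases upstream (chr10:127290702-127290720), 1 mismatch: CCAATcagaaagcgGCACG
With at most 1 mismatch the element was in 7 of the 10 genes and in 494 of the 32851 windows (1.5%). The best match in Dnajb9 and in Atf4 had 2 mismatches, and that in Xbp1 had 3. The part CCAAT of the element, searched alone, was in 9 of the 10 windows, all but that of Xbp1, and in 37.4% of all windows.

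Other motifs were searched in the same way. The E-box CACGTG was in the windows of Calr and Dnajb9 and in 7.15% of all windows. No member window held the ER stress element II (ATTGGNCCACG, 0.0365% of all windows), the XBP1 core TGACGTGG (0.676%), the cyclic AMP response element TGACGTCA (1.79%) or the amino acid response element TGATGNAA (3.97%). These matches describe letters in a window, and they say nothing about binding in these embryos. The binding data of the series were not analysed here.

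The depth and the labels were checked before the genes were compared. Totals ranged from 3239117 counts (ird1 cross wt replicate 2) to 7371483. Gtf2i was at 624 ± 30.7 CPM (counts scaled to a common library total) in wt, 368 ± 6.23 in gtf2i and 82.5 ± 0.797 in gtf2i/gtf2i (SD, n = 3 each), with edgeR adjusted p of 2.79e-11 for gtf2i/gtf2i against wt. Gtf2ird1 RNA was higher, not lower, in ird1/ird1 than in wt, with a log2 difference of 1.18 (SE 0.0974) and an adjusted p of 3.92e-05 by edgeR, and it was also higher in gtf2i/gtf2i. The labels do not say whether the ird1 allele removes RNA, so Gtf2ird1 does not check the ird1 labels. Of the marker lists, 16 of 16 neuron and 14 of 15 radial glia genes were in the table, and so were 19 of 20 mesenchyme and 16 of 17 endothelium genes. Red blood cell, choroid plexus and microglia markers had 8, 9 and 6 genes in the table, and these lists were less complete, with several genes of each absent. Presence in the table therefore does not single out neural tissue, and summed levels are given with the results.

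All 10 genes were expressed in every library, as was every gene of the deposited table, which had been filtered (at least 2.9 CPM). Their levels differed more between genes than between groups. Per kilobase of the deposited transcript length, Calr was highest, with a mean of 319 CPM per kb over the 18 libraries (SD 25.6), and stood above Hspa5 in 18 of 18 libraries. Hspa5 (102 CPM per kb), Pdia3 (96.8) and Pdia6 (92.5) lay close together, and Hspa5 was above Pdia3 in 11 of the 18 libraries, 6 of 9 in the gtf2i cross and 5 of 9 in the ird1 cross. Pdia3 was above Pdia6 in 9 of 9 libraries of the gtf2i cross and in 3 of 9 of the ird1 cross, so that order differed by cross. Pdia4 (79.9), Atf4 (77.9) and Hsp90b1 (69.1) followed, and their order differed by cross too. Pdia4 was above Atf4 in 8 of 9 libraries of the gtf2i cross and 2 of 9 of the ird1 cross, and Atf4 was above Hsp90b1 in 3 of 9 and 9 of 9. Xbp1 had 45.5 CPM per kb and was below Hsp90b1 in 16 of 18 libraries. The lowest were Ddit3, with 10.5 CPM per kb, and Dnajb9, with 7.59, where Ddit3 was the higher in 16 of 18. Transcript length here is 1 deposited value per gene and may not be that of the main transcript. The counts behind the lowest genes were small, from 33 to 94 for Ddit3 and from 34 to 145 for Dnajb9.

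**Figure D1:**
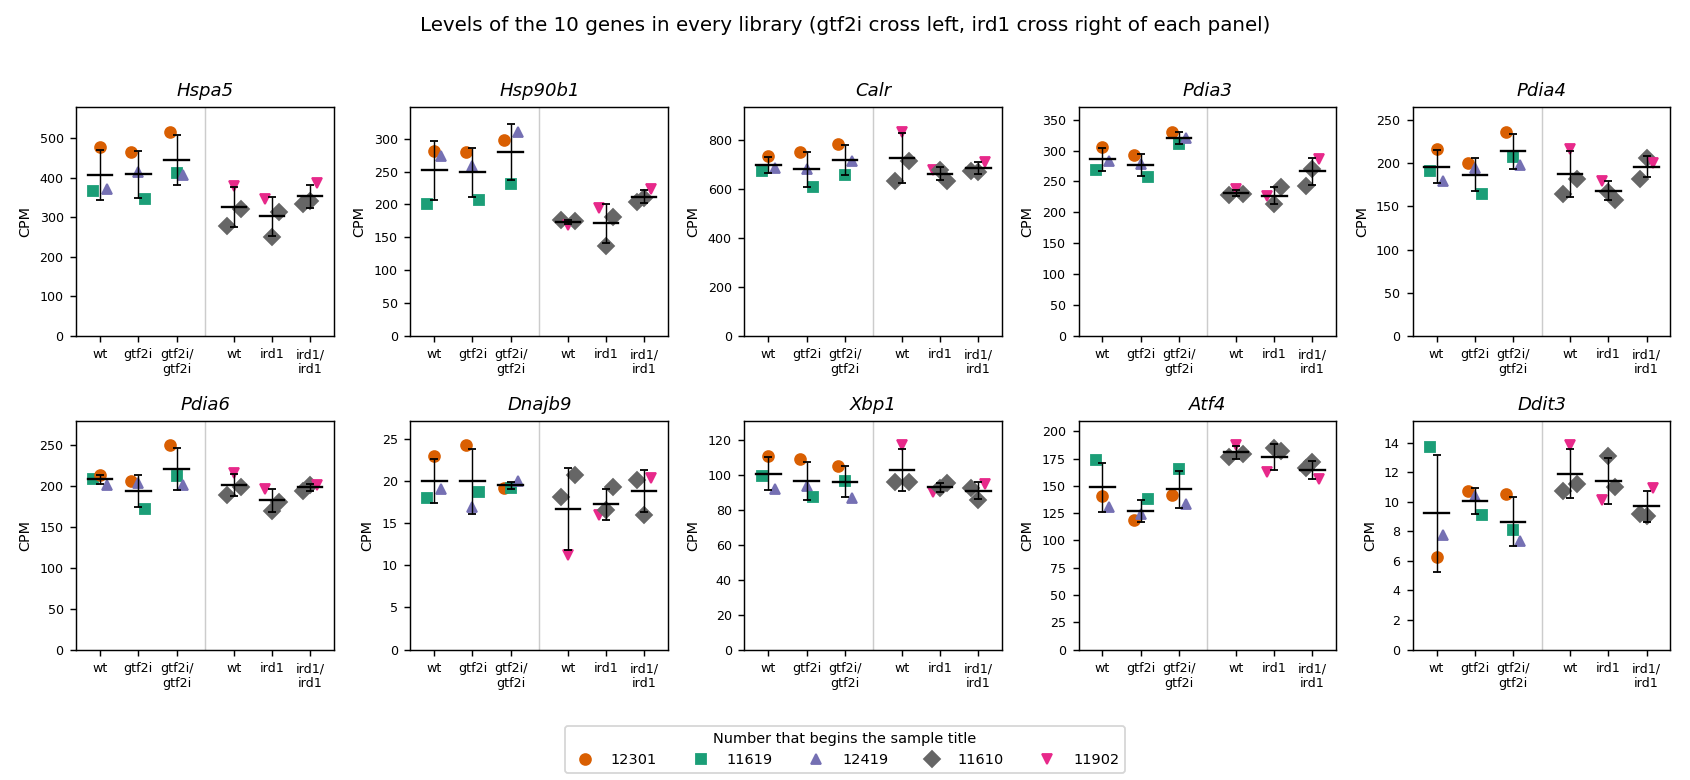
Level in CPM (y axis, from 0) of each of the 10 genes in the 18 libraries, by genotype group (x axis), with the gtf2i cross left and the ird1 cross right of the grey line. Points are libraries, shaped by the number that begins their titles, and bars are the mean ± SD of 3 libraries. Within each cross the genotype groups of most genes overlap, while Hspa5, Hsp90b1 and Pdia3 are mostly higher and Atf4 mostly lower in the gtf2i cross.

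No gene of the 10 passed the threshold of an adjusted p under 0.05 in gtf2i/gtf2i against wt by edgeR's quasi-likelihood test, which is what called means below. Over all 11708 genes, 110 (0.94%) were called, and 624 (5.33%) when the number shared by sample titles was a block. With that block, 0 of the 10 genes were called too, and 0 by DESeq2. An unadjusted p under 0.05 was reached by 0 of the 10 and 14.4% of all genes, and with the block by 2 of the 10, Hsp90b1 and Pdia3, and 18.9% of all genes. The log2 fold changes of the 10 ran from -0.10 to 0.15, with a median of 0.06 against 0.00 over all genes, and 6 were positive.

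Hspa5 encodes BiP, the ER member of the Hsp70 family and the gene whose stress element TFII-I is known to bind. It was at 367, 479 and 372 CPM in the wt libraries of the gtf2i cross, at 347, 465 and 414 in gtf2i and at 411, 517 and 407 in gtf2i/gtf2i. Each group is listed in the order of title numbers 11619, 12301 and 12419. Of the gtf2i/gtf2i libraries 2 lay within the wt range and 1 above it. The log2 fold change of gtf2i/gtf2i against wt was 0.13 (SE 0.131), with a 95% confidence interval from -0.15 to 0.41 (edgeR adjusted p 0.746). That interval is from the fit without a block (the SE was 0.0738 with the title number as a block). It covers levels from 0.899 to 1.33 times those of wt, so lower levels of Hspa5 than 0.899 times wt lie outside it. In gtf2i against wt the value was 0.01 (SE 0.131, interval -0.27 to 0.29). Without wt replicate 2, the wt library with the highest Hspa5, the gtf2i/gtf2i value was 0.26 and the edgeR adjusted p 0.439, and without gtf2i/gtf2i replicate 1, the library at 517 CPM, it was 0.01 (edgeR adjusted p 0.99).

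Libraries of the ird1 cross had Hspa5 at 278, 379 and 322 CPM in wt, 346, 249 and 312 in ird1 and 333, 340 and 386 in ird1/ird1. The genotype groups overlapped here too. Against wt, ird1/ird1 differed by 0.11 on the log2 scale (SE 0.127, interval -0.17 to 0.38) and ird1 by -0.11 (SE 0.127, interval -0.38 to 0.17), with edgeR adjusted p of 0.649 and 0.997. Leaving out 1 library moved the first to 0.02 (wt replicate 1) or 0.23 (wt replicate 2), and the second to -0.20 (ird1 replicate 1) or 0.02 (wt replicate 2). Against ird1, ird1/ird1 was at 0.21 (SE 0.126, unadjusted p 0.116, edgeR adjusted p 0.766). For Hspa5 the effect of gtf2i/gtf2i minus that of ird1/ird1 was 0.02 (SE 0.2, edgeR adjusted p 0.979).

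Hsp90b1 encodes GRP94, the ER member of the Hsp90 family. It was at 200, 282 and 273 CPM in wt, 207, 280 and 259 in gtf2i and 231, 298 and 311 in gtf2i/gtf2i, listed in each group in the order of title numbers 11619, 12301 and 12419. The groups overlapped, and the spread inside each group was larger than the differences between them. The log2 fold change in gtf2i/gtf2i was 0.15 (SE 0.146, interval -0.16 to 0.47, edgeR adjusted p 0.729), and it was 0.01 without wt replicate 1 and 0.27 without gtf2i/gtf2i replicate 2. The ird1 cross had wt libraries at 176, 169 and 174 CPM, ird1 at 195, 137 and 181, and ird1/ird1 at 203, 209 and 223. Here every ird1/ird1 library was above every wt and every ird1 library. The log2 fold change was 0.28 against wt (SE 0.107, interval 0.05 to 0.50, unadjusted p 0.0208) and 0.30 against ird1 (SE 0.106, unadjusted p 0.0132). Neither was called over all genes, with edgeR adjusted p of 0.296 and 0.766. Leaving out ird1 replicate 2, the library with the lowest Hsp90b1, lowered the value against ird1 to 0.17.

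Calr encodes calreticulin, a lectin chaperone that binds calcium and folds glycoproteins. Its levels ran from 608 to 836 CPM over the 18 libraries, a ratio of 1.37 that Xbp1 shared as the smallest among the 10. In the gtf2i cross it was at 699 ± 32.7 CPM in wt, 681 ± 72.8 in gtf2i and 720 ± 62.4 in gtf2i/gtf2i (SD, n = 3 each). Means in the ird1 cross were 729 ± 102, 664 ± 27.5 and 686 ± 24.3 CPM for wt, ird1 and ird1/ird1. The wt libraries of the ird1 cross were spread out, at 633, 836 and 717 CPM. The highest, replicate 2 at 836 CPM, was the library with the lowest total. The value for ird1/ird1 against wt was -0.10 with that library and 0.02 without it, and for gtf2i/gtf2i against wt it was 0.04 (interval -0.17 to 0.24).

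Pdia3, Pdia4 and Pdia6 encode disulfide isomerases, and Pdia3 works with calreticulin on glycoproteins. Pdia3 had the lowest unadjusted p of the 10 in gtf2i/gtf2i against wt. It was at 269, 306 and 284 CPM in wt, 257, 293 and 279 in gtf2i and 311, 331 and 320 in gtf2i/gtf2i, in the same order of title numbers. All 3 gtf2i/gtf2i libraries were above all 6 others, and Pdia3 was the 1 gene of the 10 whose gtf2i/gtf2i and wt libraries did not overlap, which held for 16.8% of all genes. Its log2 fold change against wt was 0.15 (SE 0.0802, interval -0.02 to 0.33, unadjusted p 0.0758) and against gtf2i 0.21 (SE 0.0802, interval 0.04 to 0.38, unadjusted p 0.021). By edgeR the adjusted p was 0.412 and 0.199.

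Pdia3 in the ird1 cross was at 228, 237 and 230 CPM in wt, 226, 214 and 241 in ird1 and 243, 271 and 286 in ird1/ird1. Again the homozygous libraries were all above the other 6. Between homozygotes and heterozygotes, 19.2% of all genes did not overlap in the gtf2i cross, and Pdia3 was the 1 of the 10. The share for ird1/ird1 and ird1 was 17%, and 3 of the 10 did not overlap there (Hsp90b1, Pdia3 and Pdia4, all higher). The differences were 0.19 against wt (SE 0.0863, unadjusted p 0.0409, edgeR adjusted p 0.303) and 0.22 against ird1 (SE 0.0855, unadjusted p 0.0224, edgeR adjusted p 0.766). Heterozygotes of both crosses were near their wt, at -0.06 (gtf2i) and -0.02 (ird1) on the log2 scale. The difference between the homozygous effects of the crosses was -0.04 (SE 0.112, edgeR adjusted p 0.883).

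Pdia4 and Pdia6 showed smaller values against wt. Pdia4 was at 196 ± 18.8 CPM in wt of the gtf2i cross, 187 ± 19.1 in gtf2i and 214 ± 20.6 in gtf2i/gtf2i (SD, n = 3 each). Pdia6 was at 208 ± 6.21, 194 ± 19.5 and 221 ± 25.8 CPM in the same groups. Their log2 fold changes in gtf2i/gtf2i were 0.12 and 0.08 against wt and 0.19 and 0.18 against gtf2i, with edgeR adjusted p from 0.38 to 0.796. Against wt, leaving out 1 library moved Pdia4 between 0.04 and 0.19 and Pdia6 between -0.02 and 0.15, the lowest of each without gtf2i/gtf2i replicate 1. Between ird1/ird1 and wt the values were 0.06 and -0.03, and without ird1 cross wt replicate 2 they were 0.18 and 0.03. Against ird1, Pdia4 was 0.21 higher in ird1/ird1 on the log2 scale (SE 0.104, unadjusted p 0.0655, edgeR adjusted p 0.766). It was at 182, 206 and 201 CPM in ird1/ird1 and 180, 167 and 158 in ird1. With the length trend removed its unadjusted p was 0.0198 and its edgeR adjusted p 0.837, so it was not called.

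Dnajb9 encodes ERdj4, a J-domain partner of BiP that also holds IRE1 in check. It had 18, 22.9 and 19 CPM in wt, 18.7, 24.2 and 16.9 in gtf2i and 19.2, 19.2 and 20 in gtf2i/gtf2i, in the order of title numbers 11619, 12301 and 12419. The groups overlapped, and the lowest level of all 18 libraries, 11.2 CPM from 34 counts, was in wt replicate 2 of the ird1 cross. The log2 fold change was -0.04 in gtf2i/gtf2i (SE 0.155, interval -0.37 to 0.30) and 0.11 in ird1/ird1 (SE 0.184, interval -0.28 to 0.51), and the latter was -0.05 without that library.

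The 3 transcription factors had values below 0 in gtf2i/gtf2i, none of them called, and the sign of each turned when 1 library was left out (Xbp1 to 0.005 and Atf4 to 0.05 without gtf2i/gtf2i replicate 3, and Atf4 to 0.10 without wt replicate 1). Xbp1, whose spliced transcript encodes the factor made after IRE1 acts, was at 101 ± 9.3 CPM in wt of the gtf2i cross, 96.8 ± 11.4 in gtf2i and 96.2 ± 8.77 in gtf2i/gtf2i (SD, n = 3 each). In the ird1 cross it was at 95.8, 117 and 96 CPM in wt and at 92.9, 85.8 and 94.7 in ird1/ird1, with every ird1/ird1 library below every wt library. The log2 fold changes against wt were -0.07 (SE 0.107, interval -0.30 to 0.16) in gtf2i/gtf2i and -0.18 (SE 0.1, interval -0.39 to 0.03) in ird1/ird1, with edgeR adjusted p of 0.839 and 0.346. Without the library at 117 CPM, wt replicate 2, the latter was -0.08.

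Atf4 encodes the factor translated when eIF2α is phosphorylated. In the gtf2i cross it was at 174, 141 and 131 CPM in wt, 138, 119 and 124 in gtf2i and 165, 142 and 133 in gtf2i/gtf2i, again by title number. The gtf2i library was below the wt library in 3 of 3 title numbers, and the groups overlapped. Against wt the log2 fold change was -0.23 in gtf2i (SE 0.113, unadjusted p 0.0656, edgeR adjusted p 1) and -0.03 in gtf2i/gtf2i (SE 0.113, interval -0.27 to 0.22, edgeR adjusted p 0.955). The first was -0.10 without wt replicate 1, the library at 174 CPM. In the ird1 cross Atf4 was at 176, 187 and 179 CPM in wt and 166, 172 and 156 in ird1/ird1, which did not overlap, and differed by -0.14 (SE 0.0868, edgeR adjusted p 0.383), or by -0.05 with the transcript length trend removed.

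Ddit3 encodes CHOP, the factor tied to cell death under lasting ER stress. It had 13.7, 6.23 and 7.73 CPM in wt of the gtf2i cross, 9.07, 10.7 and 10.4 in gtf2i and 8.08, 10.5 and 7.33 in gtf2i/gtf2i. The wt libraries alone spanned the other 6, so the estimate was wide: -0.10 in gtf2i/gtf2i against wt (SE 0.257, interval -0.66 to 0.45, edgeR adjusted p 0.918), which covers levels from 0.635 to 1.37 times wt. Without wt replicate 1, at 13.7 CPM, the value turned to 0.28. For ird1/ird1 against wt it was -0.28 (SE 0.179, interval -0.67 to 0.10, edgeR adjusted p 0.387), or -0.12 with the length trend removed.

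**Figure D2:**
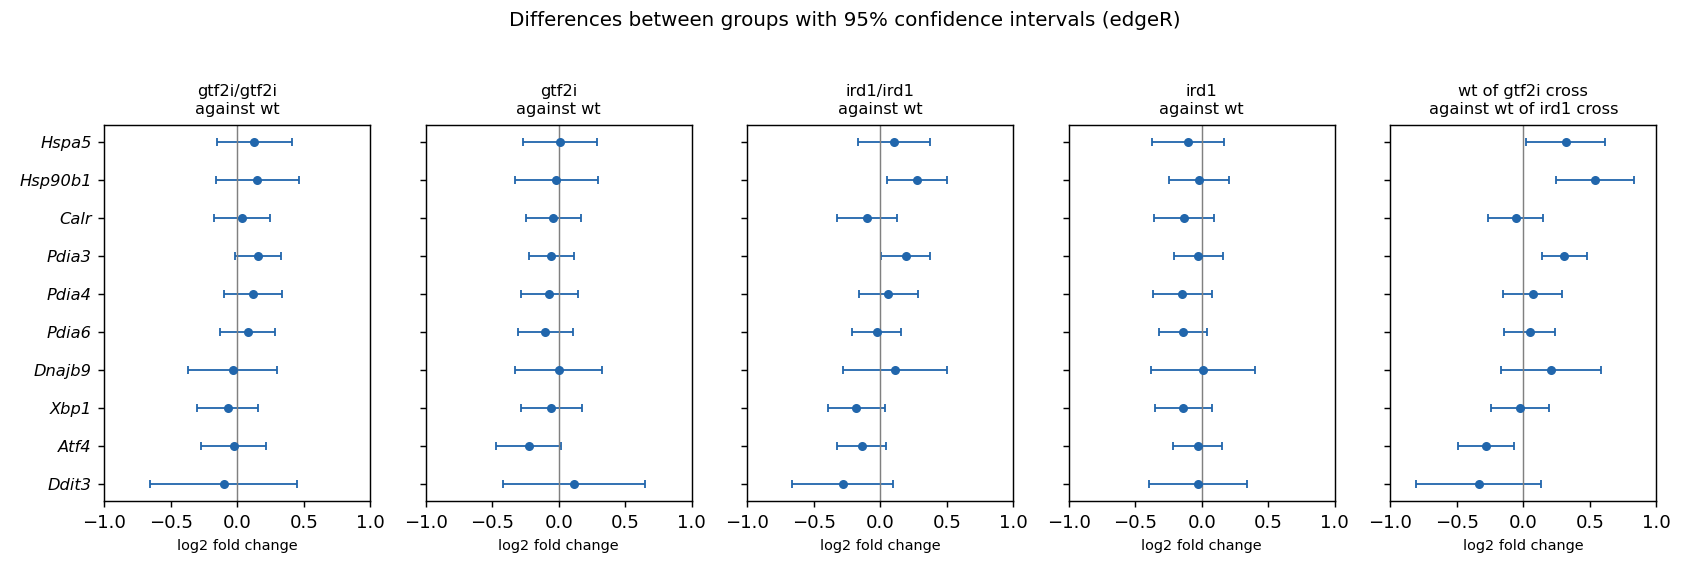
Log2 fold change (x axis) of each of the 10 genes (y axis) in 5 comparisons, with points for edgeR's estimate and bars for its 95% confidence interval. In the 4 genotype comparisons most intervals span 0, with those of Hsp90b1 and Pdia3 in ird1/ird1 against wt above it, whereas between the wt groups those of Hspa5, Hsp90b1 and Pdia3 lie above 0 and that of Atf4 below it.

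The other genotype comparisons gave no called gene of the 10 either. In gtf2i against wt, 1 gene (0.00854%) was called over all genes and 0 of the 10, and at an unadjusted p under 0.05 the counts were 1.6% of all genes and 0 of the 10. Against gtf2i, the gtf2i/gtf2i libraries had 365 called genes (3.12%), none of them among the 10, and Pdia3 was the 1 of the 10 at an unadjusted p under 0.05, against 16.5% of all genes. Against wt of its cross, ird1/ird1 had 1 called gene (0.00854%), and Hsp90b1 and Pdia3 were the 2 of the 10 at an unadjusted p under 0.05, against 16.1% of all genes. In that comparison 4 of the 10 genes did not overlap between groups, Hsp90b1 and Pdia3 higher and Xbp1 and Atf4 lower, and 26.9% of all genes did not. Between ird1 and wt 0 genes (0%) passed, and 0 of the 10 and 3.02% of all genes had an unadjusted p under 0.05. Between ird1/ird1 and ird1 0 genes (0%) passed, and at an unadjusted p under 0.05 there were 2 of the 10, Hsp90b1 and Pdia3, and 4.66% of all genes.

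Whether the homozygous effects differ between the crosses was tested on all 18 libraries. The difference was called for 20 genes (0.171%) and for 0 of the 10, and 13% of all genes and 0 of the 10 had an unadjusted p under 0.05. The log2 differences of the 10 ran from -0.15 (Dnajb9) to 0.18 (Ddit3), with intervals reaching from -0.67 to 0.85. By DESeq2, 0 of the 10 were called in each of these 7 genotype comparisons, and over all genes it called 322 in gtf2i/gtf2i against wt, 6 in gtf2i against wt, 504 in gtf2i/gtf2i against gtf2i, 1 in each comparison of the ird1 cross and 84 in the difference of effects. The comparisons within a cross share libraries, so their values are not independent of each other. Whole brains were measured, so a lower level in every cell and fewer cells that express a gene cannot be told apart.

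The wt groups, which the labels give the same genotype, differed in 4 of the 10 genes at an unadjusted p under 0.05. For Calr (-0.06), Pdia4 (0.07), Pdia6 (0.05) and Xbp1 (-0.03) the log2 differences between them were smaller than in some genotype comparisons. Hsp90b1 was at 200, 282 and 273 CPM in wt of the gtf2i cross and at 176, 169 and 174 in wt of the ird1 cross, without overlap. The log2 difference was 0.54 (SE 0.142, interval 0.24 to 0.83, unadjusted p 0.00109). Pdia3 also did not overlap and differed by 0.31 (SE 0.0799, unadjusted p 0.000883), and Hspa5, which overlapped, by 0.32 (SE 0.142, unadjusted p 0.0366). Atf4 went the other way, at 149 ± 22.3 CPM in wt of the gtf2i cross and 181 ± 5.66 in wt of the ird1 cross, a difference of -0.28 (SE 0.102, unadjusted p 0.0119) without overlap. With the transcript length trend removed, that difference was -0.17 (unadjusted p 0.0586) and that of Ddit3 went from -0.34 to -0.14. Hspa5, Hsp90b1, Pdia3 and Atf4 were 4 of the 10 at an unadjusted p under 0.05, against 32.7% of all genes (3 of the 10 and 27% with that trend removed), and 3 of the 10 did not overlap, against 32% of all genes. By edgeR 0 of all genes (0%) and 0 of the 10 were called, with adjusted p of 0.0689 for Hsp90b1 and Pdia3 and 0.0819 for Atf4. DESeq2 called 1561 of the 6941 genes to which it gave an adjusted p (22.5%) and 3 of the 10, Hsp90b1 and Pdia3 (adjusted p 0.0209 each) and Atf4 (0.0444). By edgeR without wt replicate 1 of the gtf2i cross 4 were called, Hsp90b1, Pdia3, Atf4 and Ddit3 (edgeR adjusted p from 0.0241 to 0.0291), beside 2076 of all genes (17.7%). When ird1 cross wt replicate 1 was left out 1 was called, Hsp90b1 (edgeR adjusted p 0.0478), beside 1032 of all genes (8.81%). Summed choroid plexus markers were at 657 to 698 CPM in wt of the gtf2i cross and 728 to 912 in wt of the ird1 cross, without overlap, endothelium markers at 654 to 790 and 777 to 837, and neuron markers at 6920 to 7630 and 6560 to 7080. Mesenchyme markers were at 1300 to 1510 and 1380 to 2070 CPM, red blood cell markers at 4090 to 5310 and 3180 to 5040, radial glia markers at 3130 to 3510 and 3220 to 3300, and microglia markers at 68.8 to 102 and 93.1 to 104. The part of these in the wt differences was not tested.

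The same ordering held over all genotypes. Of the 9 libraries of the gtf2i cross, 7 had more Hsp90b1 than every library of the ird1 cross, 6 more Hspa5 and 5 more Pdia3. Hsp90b1 had a median of 273 CPM (200 to 311) in the gtf2i cross and 181 (137 to 223) in the ird1 cross. For Hspa5 the medians were 411 (347 to 517) and 333 CPM (249 to 386). Conversely, 7 of the 9 libraries of the gtf2i cross had less Atf4 than every library of the ird1 cross, with medians of 138 (119 to 174) and 176 CPM (156 to 187). Calr differed little, with medians of 687 and 679 CPM. The crosses carry different title numbers, so cross and number cannot be told apart, and differences between crosses that concern genotype were made within each cross.

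Sample titles begin with a number that several libraries share, and the labels leave its meaning unstated. Numbers 11619, 12301 and 12419 of the gtf2i cross each hold 1 library of each genotype. In the ird1 cross, 11610 holds 2 libraries of each genotype and 11902 holds 1. Deviations of log2 CPM from the group mean, averaged over the libraries of a number, are given as a description with no test. For Hspa5 they were -0.16 in 11619, 0.22 in 12301 and -0.07 in 12419, and in the ird1 cross -0.09 in 11610 and 0.19 in 11902. Hsp90b1 had -0.28, 0.16 and 0.12 in the numbers of the gtf2i cross, and Atf4 had 0.18, -0.06 and -0.12. In number 11619, then, Hspa5 and Hsp90b1 were below and Atf4 above the group means.

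**Figure D3:**
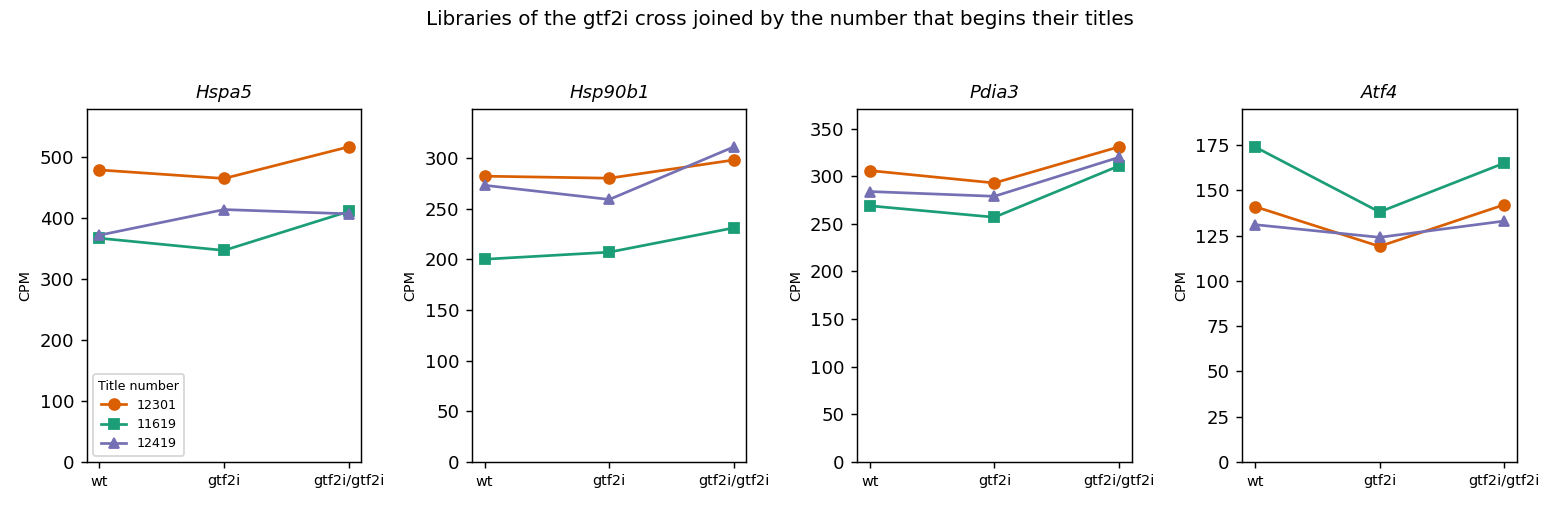
Level in CPM (y axis, from 0) of Hspa5, Hsp90b1, Pdia3 and Atf4 in the 9 libraries of the gtf2i cross by genotype (x axis), with lines joining libraries whose titles begin with the same number. For Hsp90b1 and Pdia3 all 3 lines end highest in gtf2i/gtf2i. For Hspa5 and Hsp90b1 the lowest and highest lines lie further apart than any line changes. For Pdia3 each line rises from gtf2i to gtf2i/gtf2i by more than the lines lie apart in gtf2i/gtf2i.

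Compared within title numbers, the gtf2i/gtf2i library had more Hspa5, Hsp90b1, Pdia3 and Pdia4 than the wt library in 3 of 3 numbers, and less Xbp1 in 3 of 3. For Calr, Pdia6, Dnajb9 and Atf4 it was higher in 2 of 3, and for Ddit3 in 1 of 3. With the number as a block the log2 fold changes against wt hardly moved, at 0.13 for Hspa5, 0.15 for Hsp90b1 and 0.16 for Pdia3, but the unadjusted p fell to 0.102, 0.0418 and 0.034. The edgeR adjusted p with the block was 0.384, 0.239 and 0.214, so none was called. The other 7 genes had blocked values from -0.09 (Ddit3) to 0.12 (Pdia4), with edgeR adjusted p from 0.458 to 0.932.

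Over the 18 libraries the 6 chaperone and isomerase genes Hspa5, Hsp90b1, Calr, Pdia3, Pdia4 and Pdia6 varied together. Pearson's r of log2 CPM among their 15 pairs ran from 0.28 to 0.91, with a median of 0.71. With the group means subtracted it ran from 0.32 to 0.86, with a median of 0.72. The highest values with Hspa5 were then those of Pdia6 (0.86), Pdia4 (0.83), Calr (0.76), Pdia3 (0.76) and Xbp1 (0.74). Dnajb9 (0.01) and Ddit3 (-0.01) did not follow Hspa5 within groups, and Atf4 was opposite, at -0.37 with Hspa5 and -0.88 with Hsp90b1. These are descriptions over 18 libraries that share title numbers and differ in depth.

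**Figure D4:**
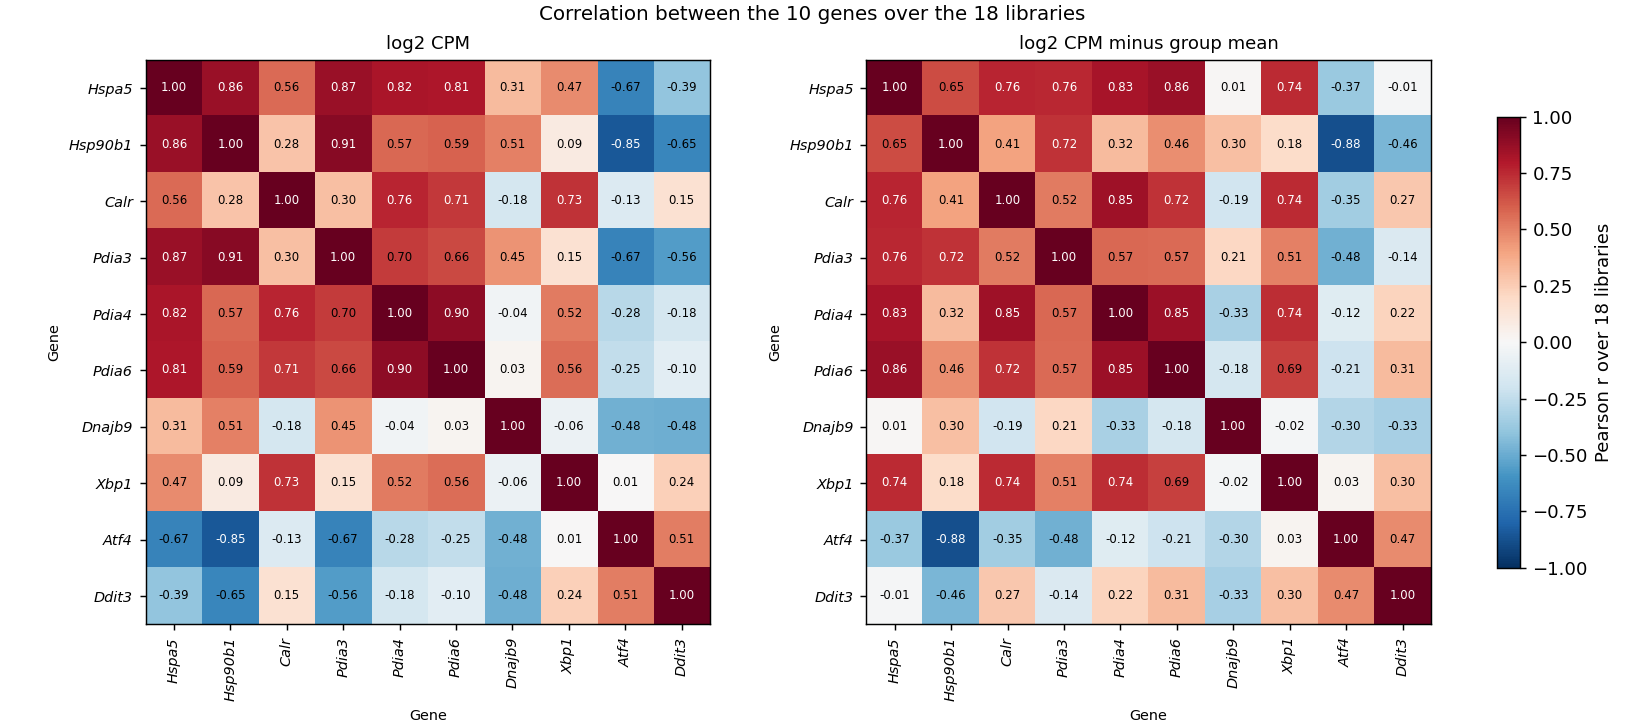
Pearson's r (colour and number in each cell) between the 10 genes (both axes) over 18 libraries, for log2 CPM at the left and log2 CPM minus the group mean at the right. The 6 chaperone and isomerase genes form a block of positive values in both panels, and Atf4 has negative values with all 6.

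Ranked among all other genes by r with Hspa5, Pdia3 was at 3, Hsp90b1 at 5, Pdia4 at 36, Pdia6 at 44 and Calr at 1150. Within groups Pdia6 was at 2, Pdia4 at 11, Calr at 31, Pdia3 at 36 and Hsp90b1 at 162. Outside the 10, the genes most like Hspa5 were Cenpf (r 0.90), Cdv3 (0.88), Mis12 (0.87), Fignl1 (0.86) and Cdk8 (0.85). Cenpf and Mis12 encode kinetochore proteins. Within groups the closest were Nsrp1 (0.90), Nup133 (0.86) and Gm25835 (0.85), over the same 18 libraries.

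Other genes of the pathway were taken from 6 lists that hold none of the 10. By edgeR, 0 genes of these lists were called in any of the 8 comparisons. Among sensors and transducers, 19 genes were in the table, 9 of them positive in gtf2i/gtf2i against wt, with a median of -0.002 on the log2 scale and 0 at an unadjusted p under 0.05. Creb3l2, an ATF6-like factor of the ER membrane, had the most positive value (0.21, edgeR adjusted p 0.531) and its relative Creb3 the most negative (-0.26, edgeR adjusted p 0.369). Among 36 other ER chaperones and folding enzymes, 27 were positive and 9 negative, with a median of 0.07, and 3 had an unadjusted p under 0.05 (14.4% of all genes did). Fkbp14, a prolyl isomerase of the ER, was at 9.96 ± 0.829 CPM in gtf2i/gtf2i and 7.34 ± 0.583 in wt (SD, n = 3 each), the most positive value (0.43, edgeR adjusted p 0.259). Tor1a, an ATPase of the ER lumen, was the most negative (-0.29, edgeR adjusted p 0.287). Between ird1/ird1 and wt 16 of these 36 were positive, with a median of -0.07.

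Of 26 genes of ER-associated degradation, which returns misfolded proteins to the cytosol for breakdown, 9 were positive and 17 negative in gtf2i/gtf2i against wt, with a median of -0.02 and 0 at an unadjusted p under 0.05. Their range was narrow, from -0.15 for the lectin gene Os9 to 0.20 for the ubiquitin ligase gene Rnf5. Of 31 genes of the translocon and oligosaccharyl transferase, which bring proteins into the ER and glycosylate them, 22 were positive, with a median of 0.07, from -0.19 (Tusc3) to 0.33 (Sec61b). None of the 31 had an unadjusted p under 0.05 there, while in ird1/ird1 against wt 9 of the 31 did, 6 higher and 3 lower, beside 16.1% of all genes. The heat shock genes of cytosol and mitochondria, a chaperone set outside the ER, had 15 of 22 positive, a median of 0.05 and 0 at an unadjusted p under 0.05, from -0.14 (Hsph1) to 0.47 (Hspb8).

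Of 39 genes that ATF4 and CHOP are known to raise and that were in the table, 25 were positive in gtf2i/gtf2i against wt, with a median of 0.06, and 6 had an unadjusted p under 0.05, 4 higher and 2 lower, a share near the 14.4% of all genes. Sesn2, a sestrin that restrains mTORC1, was at 27.7 ± 7.14 CPM in gtf2i/gtf2i and 17.5 ± 3.59 in wt (SD, n = 3 each), a log2 difference of 0.67 with SE 0.197 and edgeR adjusted p 0.115. Slc7a1, a transporter of cationic amino acids, was at 128 ± 12.7 and 166 ± 18.6 CPM in the same groups, a value of -0.38 (SE 0.116, edgeR adjusted p 0.124). Both were called with the title number as a block, with edgeR adjusted p of 0.0361 for Sesn2 and 0.0112 for Slc7a1, and both without gtf2i/gtf2i replicate 3 (0.0058 and 0.0203). These settings called 5.33% and 9.9% of all genes, against 0.94%. Without gtf2i/gtf2i replicate 1 Sesn2 was at 0.47 (edgeR adjusted p 0.416). Their values had opposite signs. Between ird1/ird1 and wt 15 of the 39 were positive, with a median of -0.09. Of these 39, 10 had an unadjusted p under 0.05, 4 higher and 6 lower, beside 16.1% of all genes. In that comparison the counts at an unadjusted p under 0.05 were 3 of 19 sensors and transducers, 5 of 36 ER chaperones, 3 of 26 degradation genes and 4 of 22 heat shock genes, beside the same 16.1% of all genes.

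**Figure D5:**
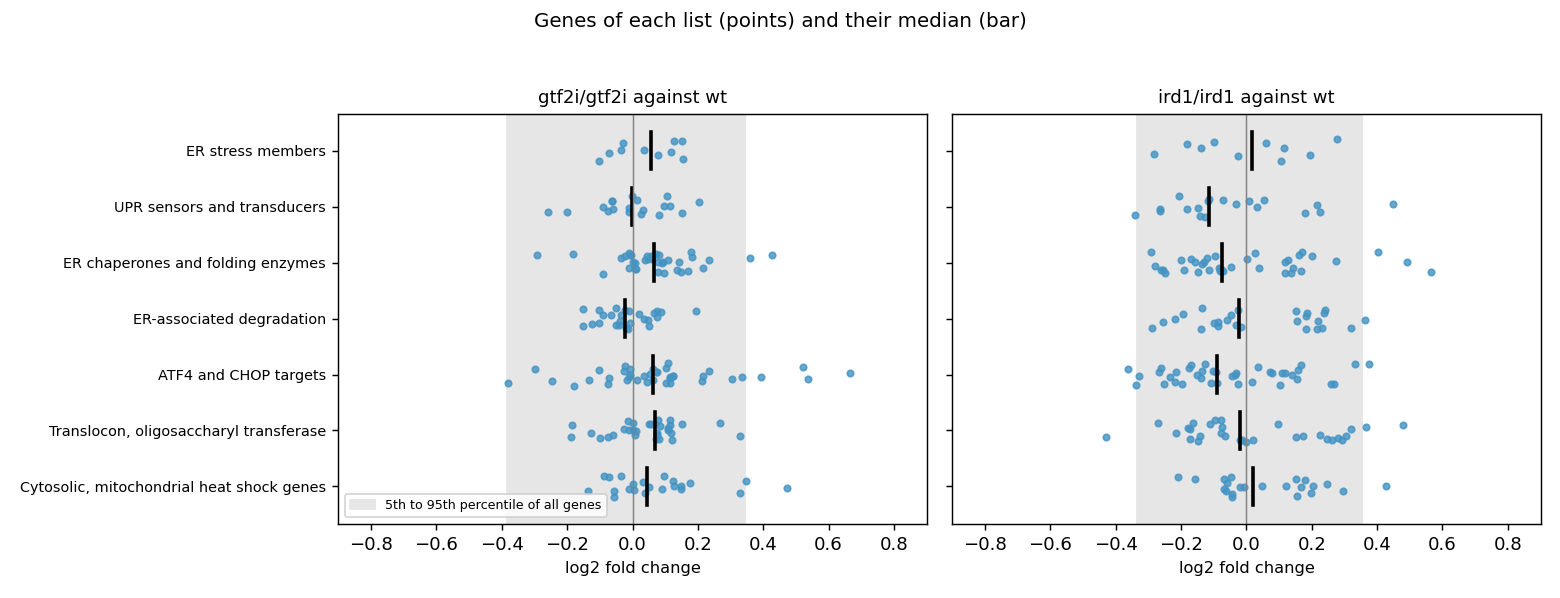
Log2 fold change (x axis) of the genes (points) of each list (y axis) in gtf2i/gtf2i against wt, left, and in ird1/ird1 against wt, right, with bars at the list medians and grey from the 5th to the 95th percentile of all 11708 genes. The medians lie between -0.11 and 0.07, and most points of every list are inside the grey range.

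Marker levels of other cell types differed between the same groups. Summed over 8 red blood cell markers, gtf2i/gtf2i libraries were at 7290 ± 1730 CPM (5790 to 9180) and wt at 4560 ± 661 (4090 to 5310). Of the 8, 2 were called higher, while 0.94% of all genes were called in that comparison. The 14 radial glia markers summed to 4090 ± 289 CPM (3760 to 4320) and 3360 ± 204 (3130 to 3510), and the 16 neuron markers to 6340 ± 994 (5720 to 7480) and 7270 ± 356 (6920 to 7630). The 19 mesenchyme and meninges markers summed to 1860 ± 420 CPM (1410 to 2250) in gtf2i/gtf2i and 1400 ± 102 (1300 to 1510) in wt. Endothelium (16 genes) summed to 782 ± 71.3 and 719 ± 68.1 CPM, choroid plexus (9) to 592 ± 30.8 and 676 ± 20.4, and microglia (6) to 104 ± 8.68 and 83.6 ± 16.7. Of these lists, 1 radial glia and 1 choroid plexus gene were called lower. Their part in the levels of the 10 genes was not tested. In ird1/ird1 and wt of the ird1 cross, where Hsp90b1 and Pdia3 were higher in all 3 homozygous libraries, the red blood cell markers were at 4390 ± 1120 and 4280 ± 973 CPM, the mesenchyme markers at 1730 ± 360 (1410 to 2120) and 1620 ± 390 (1380 to 2070) and the radial glia markers at 3450 ± 168 (3260 to 3560) and 3280 ± 45.1 (3220 to 3300). Against the heterozygotes, Pdia3 was also higher in all 3 homozygous libraries of each cross. Relative to gtf2i, gtf2i/gtf2i had 5 red blood cell, 3 radial glia, 2 mesenchyme and 1 endothelium marker called higher. There 1 marker each of radial glia, choroid plexus and neurons was called lower, and 3.12% of all genes were called. Red blood cell markers summed to 7290 ± 1730 CPM in gtf2i/gtf2i and 3990 ± 200 in gtf2i, mesenchyme markers to 1860 ± 420 and 1510 ± 296, and radial glia markers to 4090 ± 289 and 3420 ± 246. In the same order, endothelium markers summed to 782 ± 71.3 and 648 ± 70 CPM and choroid plexus markers to 592 ± 30.8 and 714 ± 82.9. Neuron markers summed to 6340 ± 994 and 7270 ± 180 CPM, and microglia markers to 104 ± 8.68 and 88.8 ± 13.9. In the ird1 cross 0 markers and 0% of all genes were called between ird1/ird1 and ird1. Of the 19 mesenchyme markers 17 were positive, summing to 1730 ± 360 and 1310 ± 206 CPM. An unadjusted p under 0.05 was reached by 7 of the 19, beside 4.66% of all genes. Endothelium markers were positive in 12 of 16, summing to 780 ± 47.7 and 728 ± 62.8 CPM. Their part in Pdia3 and Hsp90b1 was not tested.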

How the data were processed

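RNA-seq of 18 libraries was used, and 32 ChIP-seq and input samples were not analysed here. The authors deposited 1 table of whole-number counts per gene, not normalized, with 1 transcript length per gene. Trimmomatic, STAR, HTSeq and the build mm10 are named, without versions, in the submitters' processing notes. Every gene had at least 2.9 CPM in every library, so the deposited counts had been filtered, and a gene silent in 1 library is not seen. Per the labels' protocols, RNA was depleted of ribosomal RNA before library preparation. No strand setting is given in the sources used here.

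TMM scaling was used, filterByExpr left out 0 genes, and the test was edgeR's (4.0.16, quasi-likelihood, R 4.3.3), with Benjamini-Hochberg adjustment over 11708 genes and called at an adjusted p under 0.05. Contrasts within a cross used its 9 libraries (6 residual degrees of freedom, biological coefficient of variation 10.4% and 10%), and contrasts between crosses all 18 (12 residual degrees of freedom). Correlations used log2 CPM with a prior count of 2. Confidence intervals are 95%. No library was a copy of another of its group: the 18 such pairs differed beyond counting noise (chi-square per degree of freedom 2.9 to 29.5). Where the labels do not state separate litters, p-values measure the spread between these samples.

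The 10 genes, the lists and the tests were chosen with earlier results of these data known. Named genes were the 10, Gtf2i and Gtf2ird1, any called list gene, each list's most positive and most negative gene in gtf2i/gtf2i against wt, and the 5 genes (3 within groups) most like Hspa5. The shared title numbers were tested for pairing: deviations from group means of gtf2i/gtf2i and wt libraries with the same number correlated at 0.377, 0.103 and 0.52, which meets the level of 0.1 taken as pairing, and no other contrast met it in every pair. The main test has no block, and blocked values of this contrast are given with the title numbers. Alternatives were DESeq2 1.42.0, other size factors, total counts, no filter, a mean of at least 10 CPM, other sets of libraries, a transcript length trend, the block, and leaving out each library. Promoters were RefSeq's (GRCm38.p6, which mm10 corresponds to).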

Additional observations from a re-analysis of the deposited data

How the results depend on the processing

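Over 1290 values of the 10 genes under alternatives, 8 were called, all between the wt groups, 83 had the opposite sign and 22 moved by more than 1 SE. In the 7 genotype comparisons 0 of the 10 were called under every alternative run. Between the wt groups the count of the 10 called went from 0 to 3 with DESeq2, and from 0 to 4 when 1 library was left out, while all genes called went from 0 to 1561 with DESeq2 and from 0 to 2076 leaving out 1 library (2076 without gtf2i cross wt replicate 1, 1032 without ird1 cross wt replicate 1). No paired analysis was possible between the wt groups because each title number belongs to 1 cross.

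With the title number as a block, the count over all genes was 624 in gtf2i/gtf2i against wt, 2 in gtf2i against wt, 892 in gtf2i/gtf2i against gtf2i and 83 in the difference of effects, and with the length trend removed as well 847, 5, 1097 and 77. The block added no call of the 10 genes in any contrast. At an unadjusted p under 0.05 it gave 1 of the 10 in gtf2i against wt (Atf4, -0.22, p 0.00919, edgeR adjusted p 0.999, beside 2.87% of all genes), 5 of the 10 in gtf2i/gtf2i against gtf2i (21.2% of all genes) and 4 of the 10 in ird1/ird1 against ird1 (Hspa5, Hsp90b1, Pdia3 and Pdia4, beside 4.75% of all genes). In gtf2i/gtf2i against wt (110) the count was 322 with DESeq2, 262 with all 18 libraries, 294 with the length trend removed, 31 from the compared groups alone, and 28 (without wt replicate 3) to 1159 (without gtf2i/gtf2i replicate 3) leaving out 1 library. In gtf2i against wt (1) it was 6 with DESeq2, 3 with all 18 libraries and 5 from the compared groups alone. In gtf2i/gtf2i against gtf2i (365) it was between 67 and 1376 leaving out 1 library, the lowest without gtf2i replicate 2 and the highest without gtf2i/gtf2i replicate 3. In ird1 against wt (0) it was 1 with total counts only, DESeq2 or all 18 libraries, and 0 to 1 (without wt replicate 2) leaving out 1 library. In ird1/ird1 against ird1 (0) it was 1 with DESeq2, only the groups compared or all 18 libraries. In the difference of effects (20) it was 84 with DESeq2, 33 with the length trend removed and 12 to 723 (without gtf2i/gtf2i replicate 3) leaving out 1 library. The fit on only the groups compared was not run for the difference of effects. The cause of these shifts was not tested. Depth limits Ddit3 and Dnajb9 most, with counts from 33 in a library.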
